A study of Macaca mulatta with 10 samples.

Results

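The mitochondrial carriers of the SLC25 family were examined in skeletal muscle and adipose tissue of 5 male rhesus monkeys, with 1 poly(A) RNA-seq library per animal and tissue. The members were all genes whose Ensembl ID maps to a symbol of the form SLC25A followed by a number, which gave 35 of the 28595 genes in the files, each with 1 row. Animal rhesus_950807 is hyperinsulinemic and carries a heterozygous nonsense mutation of PRKD2, the gene of protein kinase D2. Animals rhesus_920401, rhesus_940129, rhesus_940313 and rhesus_950509 are controls. The hyperinsulinemic group is therefore 1 animal, and its genotype, its metabolic state and its individuality cannot be told apart. Which fat depot and which muscle were sampled is not given in the sources used here. Animals are named as in the labels.

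SLC25 proteins sit almost all in the inner mitochondrial membrane and exchange nucleotides, phosphate, keto acids, amino acids and cofactors between the matrix and the cytosol. Working muscle depends on the exchange of ADP for ATP, on phosphate import and on the malate-aspartate shuttle, which moves reducing equivalents from cytosolic NADH into the matrix. White fat that makes fatty acids exports citrate, the cytosolic source of acetyl-CoA. Several transport steps are served by closely related genes, here called paralogs, so that a tissue can carry out the same step with a different gene.

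For 33 of the 35 rows, at least 50% of the 8 nearest named genes in the files also lie beside the gene of that name in RefSeq. The row named SLC25A2, which had 0 reads in all libraries, shared 3 of its 8 neighbours. The row named SLC25A52 (ENSMMUG00000008669) shared 0 of its 8 neighbours, and all 8 lie beside its close relative SLC25A51. No row carries the name SLC25A51, so that this row may hold SLC25A51, which was not tested further. The name of a further row is in doubt for the order of its neighbours, all 8 of which were shared. The row named SLC25A47 (ENSMMUG00000013865) carries the name of a gene known from human and mouse liver. It was separated from SLC25A29 by 3 unnamed rows on the opposite strand with at most 13 reads in all 10 libraries. RefSeq places SLC25A47 next to SLC25A29, followed by WARS1 and WDR25. In the files the row lies between SLC25A29 and WDR25, where no row is named WARS1. The row may therefore hold WARS1, which is not an SLC25 gene, and this was not tested. Values of the SLC25A47 and SLC25A52 rows are given under the name in the table. The counts of calls between the tissues are also given without them, whereas sums over the family include them. SLC25A5, SLC25A6 and SLC25A37 are among the family members not analysed here, so the adenine nucleotide translocases are seen through SLC25A4 alone and the mitoferrins through SLC25A28 alone. Reads that near-identical copies share cannot be placed uniquely, which leaves the levels of SLC25A4 and of the SLC25A52 row uncertain.

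Mapped totals ranged between 30669915 and 43268985 reads, of which 48.2% to 64.6% fell in genes. PRKD2 stood at 0.387 RPKM (reads scaled to transcript length and to the mapped reads of the library) in muscle of rhesus_950807, against 1.14 to 1.79 RPKM in control muscle, and at 3.66 RPKM in its adipose tissue, against 3.27 to 6.12 RPKM in control adipose tissue. The 12 myofibre markers summed to 338 RPKM or less in each adipose library and to 67472 RPKM or more in each muscle library. The 9 adipocyte markers summed to 3156 RPKM or more in each adipose library and to 564 RPKM or less in each muscle library. In the test between the control tissues described below, 7 of these 9 were called higher in adipose tissue and 1 higher in muscle. The adipose libraries of controls rhesus_920401 and rhesus_940313 held muscle actin ACTA1 at 101 and 80.9 RPKM, which is 0.350% and 0.280% of its mean in control muscle, against at most 1.72 RPKM in the other adipose libraries. RNA of muscle at those shares would add 0.862 and 0.689 RPKM of SLC25A4 to those libraries. In bulk tissue, fewer cells of a type and less RNA per cell cannot be told apart.

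Summed over the family, the carriers reached 447 RPKM in adipose tissue of rhesus_950807, against 418, 729, 457 and 459 RPKM in adipose tissue of controls rhesus_920401, rhesus_940129, rhesus_940313 and rhesus_950509. In muscle the sum was 642 RPKM in rhesus_950807, against 716, 727, 680 and 679 RPKM in the same controls. The phosphate carrier SLC25A3 was the most abundant member in adipose tissue of rhesus_950807 and of 3 controls, while in rhesus_940129 it was the citrate carrier SLC25A1. In muscle, SLC25A4 and SLC25A3 led in every library, and the 3 most abundant members made up 66.9% of the family's RPKM in rhesus_950807 and 71.9% to 75.3% in controls. In adipose tissue the top 3 made up 46.9% in rhesus_950807 and 41.4% to 64.8% in controls. The row named SLC25A47, whose name is in doubt, was among these 3 in rhesus_950807, rhesus_920401 and rhesus_950509. It is also part of the sums, with 56.2 RPKM in adipose tissue of rhesus_950807 and 30.8 to 39.7 RPKM in control adipose tissue. At least 1 RPKM was reached by 28 members in adipose tissue of rhesus_950807 and by 28 to 30 in control adipose tissue, and by 22 members in muscle of rhesus_950807 and 20 to 24 in control muscle.

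**Figure D1:**
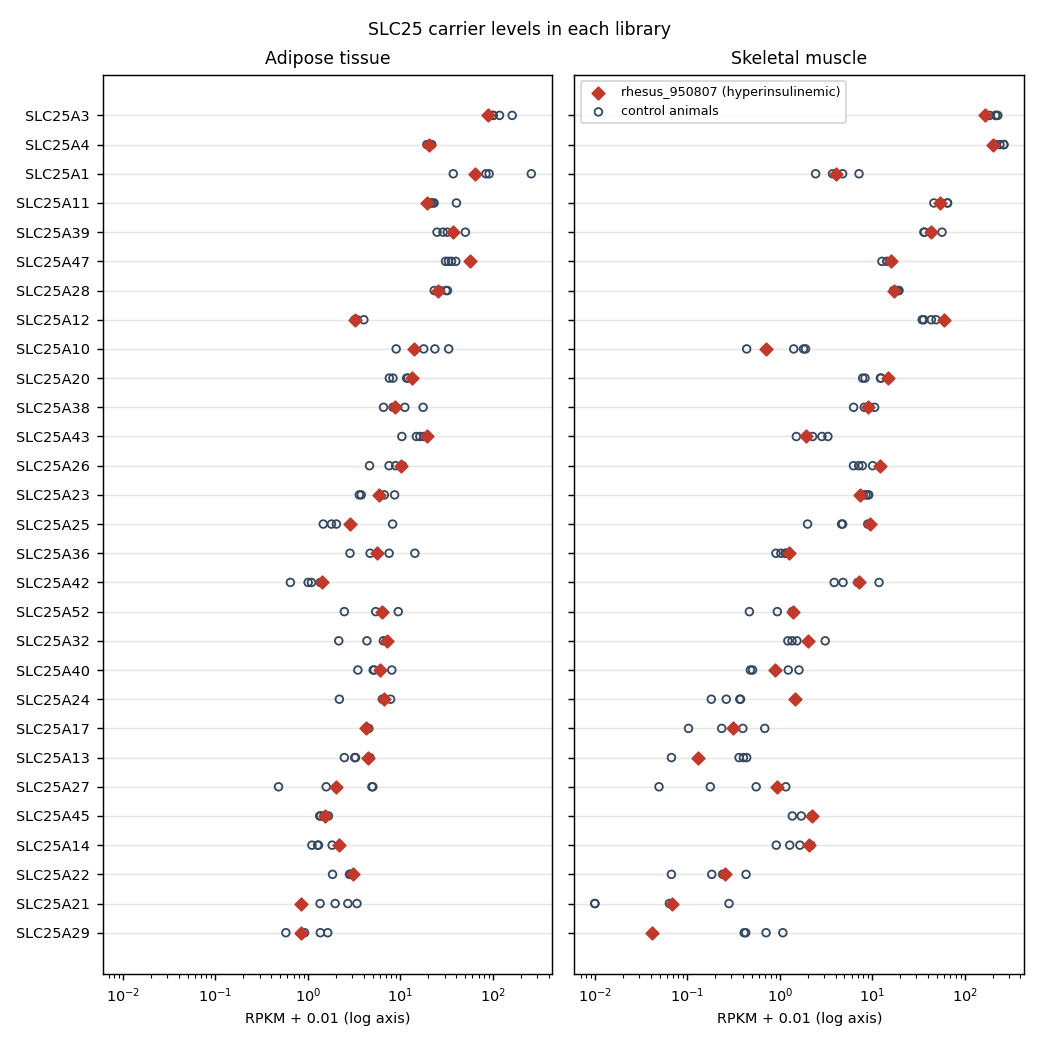
Level of 29 of the 30 SLC25 carriers tested in at least 1 comparison, in adipose tissue (left) and skeletal muscle (right). The x axis is RPKM plus 0.01 on a log scale, diamonds are animal rhesus_950807 and open circles the 4 controls. SLC25A1, at 37.3 to 260 RPKM in control adipose tissue, lies at 2.43 to 7.17 RPKM in control muscle, and SLC25A12 lies the other way round.

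To ask which carriers mark each tissue, adipose tissue was set against muscle within the 4 controls with edgeR's quasi-likelihood test over the 11173 genes that averaged 1 RPKM or more. A gene was called at a Benjamini-Hochberg adjusted p under 0.05 and an absolute log2 difference of at least 1. Of the 29 members that passed the filter, 10 were called higher in adipose tissue and 13 higher in muscle, and 6 were not called. Over all genes tested, 51.6% were called, 29.6% higher in adipose tissue and 22.0% higher in muscle. The median log2 difference was -0.14 over the members and 0.23 over all genes. Leaving out the 2 rows of doubtful name, 23 of 27 members were called. Of the 29, 7 had a mean under 1 RPKM in control muscle and so passed the filter through adipose tissue, and 6 of the 10 adipose-higher calls were among these. Without the adipose libraries of rhesus_920401 and rhesus_940313, 19 of 28 members were called, 8 higher in adipose tissue and 11 higher in muscle. Over all genes, 4698 of 10539 were called in that setting, 2514 higher in adipose tissue and 2184 higher in muscle. With each animal as a block, since both tissues came from the same monkeys, 23 members were called, beside 5712 of 11173 genes.

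The direction of the smaller differences depended on the scaling. In control adipose tissue 5.97% to 8.09% of reads in genes belonged to the top 10 genes of the library, and in control muscle 30.3% to 32.9% did. TMM scaling, used in the test above, compares each gene with the bulk of genes, whereas RPKM divides by the mapped reads. With the mapped totals in place of TMM, the median of all genes moved up by 1.37 on the log2 scale, 63.0% of genes were called higher in adipose tissue and 7.15% higher in muscle, and the members split into 15 higher in adipose tissue and 4 higher in muscle. The mapped totals raised the estimate of each member tested, so that adipose-higher calls could hardly be lost. Only the 13 muscle-higher calls were put at risk by this change, and 4 of them stood. The calls that stood in the same direction under both scalings were 14. They were SLC25A1, SLC25A10, SLC25A13, SLC25A17, SLC25A21, SLC25A22, SLC25A24, SLC25A36, SLC25A40 and SLC25A43, higher in adipose tissue, and SLC25A4, SLC25A11, SLC25A12 and SLC25A42, higher in muscle. The other 9 muscle-higher calls (SLC25A3, SLC25A14, SLC25A20, SLC25A23, SLC25A25, SLC25A26, SLC25A38, SLC25A39 and SLC25A45) were made with TMM and not with the mapped totals, and SLC25A26 and SLC25A38 changed sign. In RPKM, the 4 adipose and the 4 muscle controls did not overlap for 14 members that were higher in adipose tissue and 5 that were higher in muscle, beside 65.0% and 8.47% of all genes tested.

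**Figure D2:**
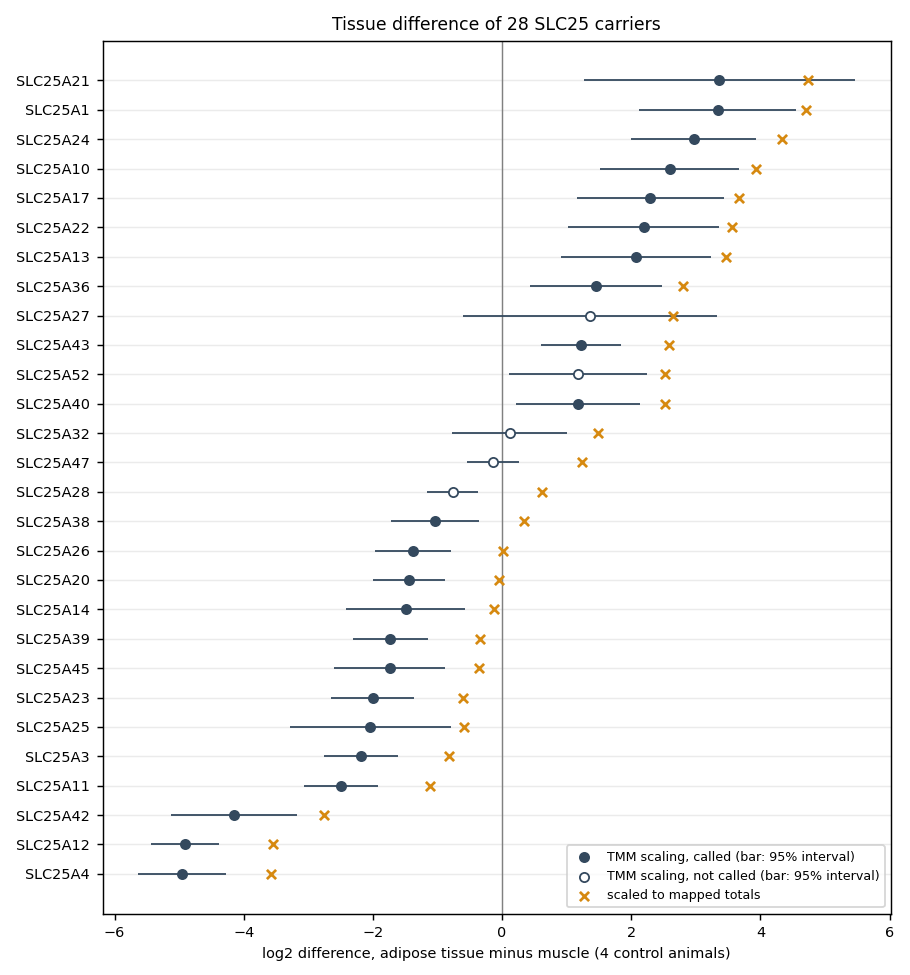
Log2 difference of 28 of the 29 SLC25 carriers tested, adipose tissue minus muscle, in the 4 controls. Circles are edgeR estimates with TMM scaling (filled where called) with 95% confidence intervals, and crosses the estimates scaled to mapped totals. The crosses lie to the right of the circles throughout, and SLC25A4, SLC25A12, SLC25A42 and SLC25A11 stay at the muscle end under both.

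The carriers of citrate and of dicarboxylic acids separated the tissues by gene. SLC25A1 (ENSMMUG00000005431), the citrate carrier, stood at 63.8 RPKM in adipose tissue of rhesus_950807 and at 37.3, 260, 84.2 and 91.1 RPKM in adipose tissue of controls rhesus_920401, rhesus_940129, rhesus_940313 and rhesus_950509. In muscle it stood at 4.02 RPKM in rhesus_950807 and at 2.43, 3.71, 4.77 and 7.17 RPKM in the same controls. Every adipose library lay above every muscle library, and SLC25A1 was higher in control adipose tissue by 3.34 on the log2 scale (SE 0.56, edgeR adjusted p = 0.000321). SLC25A10, the dicarboxylate carrier, averaged 20.9 ± 10.2 RPKM in control adipose tissue and 1.38 ± 0.667 RPKM in control muscle (SD, n = 4 each), a log2 difference of 2.59 (SE 0.50, edgeR adjusted p = 0.000807). SLC25A11, which exchanges 2-oxoglutarate for malate and is the malate carrier of the malate-aspartate shuttle, ran the other way, with 26.7 ± 9.15 RPKM in control adipose tissue and 57.8 ± 8.999 RPKM in control muscle (SD, n = 4 each), a log2 difference of -2.49 (SE 0.27) with TMM and -1.11 with the mapped totals. SLC25A21, the carrier of 2-oxoadipate and other oxodicarboxylates, had 1.34 to 3.38 RPKM in control adipose tissue and 0 to 0.272 RPKM (0 to 12 reads) in control muscle. Its log2 difference was 3.37 (SE 0.96, edgeR adjusted p = 0.00960), and without control rhesus_950509 the adjusted p was 0.0506.

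The aspartate-glutamate carriers, which complete the malate-aspartate shuttle, ran in opposite directions. SLC25A12 (aralar) stood at 3.22 RPKM in adipose tissue of rhesus_950807 and at 3.37, 3.33, 4.02 and 3.20 RPKM in adipose tissue of the controls in the order above. In muscle it stood at 59.1 RPKM in rhesus_950807 and at 36.0, 48.9, 43.4 and 34.6 RPKM in the controls. The tissues did not overlap, and the log2 difference in controls was -4.91 (SE 0.24, edgeR adjusted p = 7.12e-08) with TMM and -3.55 with the mapped totals. SLC25A13 (citrin), the paralog known from liver, was at 2.47 to 4.66 RPKM in control adipose tissue and at 0.0573 to 0.428 RPKM in control muscle, a log2 difference of 2.07 (SE 0.53, edgeR adjusted p = 0.00524). Of the other genes of the shuttle, GOT2, the mitochondrial aspartate aminotransferase, differed by -5.37 (SE 0.27) with TMM. With that scaling, 3 of the 4 enzymes tested (GOT1, GOT2 and MDH2) were called higher in muscle.

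Among the carriers of phosphate and adenine nucleotides, SLC25A4 (ANT1), which exchanges cytosolic ADP for matrix ATP, held 20.1 RPKM in adipose tissue of rhesus_950807 and 21.8, 20.5, 19.3 and 20.8 RPKM in adipose tissue of the controls. It held 204 RPKM in muscle of rhesus_950807 and 240, 265, 216 and 263 RPKM in control muscle. The gap between the tissues was about as wide in each animal, with a log2 difference of -4.95 (SE 0.31) in controls with TMM and -3.57 with the mapped totals. The files give it a transcript of 4494 bases, and RPKM falls as the length assigned to a gene grows. SLC25A3, the phosphate carrier, averaged 120 ± 28.9 RPKM in control adipose tissue and 212 ± 18.1 RPKM in control muscle (SD, n = 4 each). Its log2 difference was -2.19 (SE 0.26) with TMM and -0.82 with the mapped totals, where it was not called.

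The ATP-Mg/phosphate carriers, calcium-regulated proteins that change the size of the matrix adenine nucleotide pool, differed by paralog. SLC25A24 was at 6.59 RPKM in adipose tissue of rhesus_950807 and at 6.38, 2.18, 6.74 and 7.82 RPKM in adipose tissue of the controls. In muscle it was at 1.44 RPKM in rhesus_950807 and at 0.254, 0.366, 0.171 and 0.359 RPKM in the controls, and the control log2 difference was 2.97 (SE 0.45, edgeR adjusted p = 0.000148). SLC25A23 averaged 5.67 ± 2.44 RPKM in control adipose tissue and 8.64 ± 0.516 RPKM in control muscle (SD, n = 4 each), with log2 differences of -2.01 (TMM) and -0.61 (mapped totals). SLC25A25 was at 1.45 to 8.23 RPKM in control adipose tissue and at 1.99 to 8.93 RPKM in control muscle, with log2 differences of -2.04 (TMM) and -0.59 (mapped totals), and was not called without control rhesus_940313 (edgeR adjusted p = 0.0806). SLC25A41, the remaining paralog, stayed at or below 0.357 RPKM in all libraries.

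Cofactor carriers also divided, and a pyrimidine nucleotide carrier, a mitoferrin and SLC25A43 are listed with them. SLC25A42, the coenzyme A carrier, had 0.636 to 1.35 RPKM in control adipose tissue and 3.86 to 11.8 RPKM in control muscle, a log2 difference of -4.15 (SE 0.45) with TMM and -2.75 with the mapped totals. SLC25A17, which carries coenzyme A, FAD and NAD across the peroxisomal membrane rather than the mitochondrial one, had 4.27 to 4.54 RPKM in control adipose tissue and 0.0930 to 0.677 RPKM in control muscle, a log2 difference of 2.29 (SE 0.52). SLC25A36, a pyrimidine nucleotide carrier, had 2.84 to 14.3 RPKM in control adipose tissue and 0.897 to 1.16 RPKM in control muscle. Its log2 difference was 1.45 (SE 0.47, edgeR adjusted p = 0.0179), and the adjusted p was 0.0695 without control rhesus_940313 and 0.120 without control rhesus_950509. SLC25A43, for which no substrate is given here, was called higher in adipose tissue at 1.22 (SE 0.28). The mitoferrin SLC25A28, an iron importer, averaged 28.4 ± 4.15 RPKM in control adipose tissue and 18.4 ± 1.09 RPKM in control muscle (SD, n = 4 each). Its difference was -0.77 with TMM (edgeR adjusted p = 0.00354) and 0.62 with the mapped totals (edgeR adjusted p = 0.0125), so that no direction can be given.

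Among the amino acid, glutathione and acylcarnitine carriers, SLC25A22, the main mitochondrial glutamate carrier, had 1.84 to 2.89 RPKM in control adipose tissue and 0.0572 to 0.421 RPKM in control muscle, a log2 difference of 2.19 (SE 0.54). SLC25A39 and SLC25A40 are required for glutathione import into mitochondria. SLC25A39 averaged 34.1 ± 11.3 RPKM in control adipose tissue and 43.0 ± 9.58 RPKM in control muscle (SD, n = 4 each), with log2 differences of -1.73 (TMM) and -0.34 (mapped totals). SLC25A40 had 3.46 to 8.07 RPKM in control adipose tissue and 0.470 to 1.60 RPKM in control muscle. Its log2 difference of 1.17 (SE 0.44, edgeR adjusted p = 0.0353) lost its call without control rhesus_920401, rhesus_940313 or rhesus_950509, at adjusted p-values of 0.101, 0.144 and 0.0998. SLC25A20, which brings acylcarnitines into the matrix for fatty acid oxidation, averaged 9.90 ± 2.29 RPKM in control adipose tissue and 10.2 ± 2.45 RPKM in control muscle (SD, n = 4 each), and the groups overlapped in RPKM. Its TMM difference of -1.44 (SE 0.26) was -0.04 with the mapped totals. The uncoupling protein relatives SLC25A14 (-1.49, SE 0.42) and SLC25A27 (1.36, SE 0.90, not called) stayed under 6 RPKM. SLC25A14 lost its call with the mapped totals and without control rhesus_940313 (edgeR adjusted p = 0.0685), and SLC25A27 was called without control rhesus_940129 (edgeR adjusted p = 0.0329).

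Each member's share of the summed RPKM of its subfamily was taken next, without a test. It expresses the choice of paralog only where the members serve the same transport step. SLC25A12 made up 41.8% of the aspartate-glutamate carriers in adipose tissue of rhesus_950807 and 41.9% to 56.5% in control adipose tissue, against 99.8% in muscle of rhesus_950807 and 98.8% to 99.9% in control muscle. SLC25A13 therefore took close to an equal part in adipose tissue and almost none in muscle. The citrate, dicarboxylate, 2-oxoglutarate and oxodicarboxylate carriers move different substrates, so that their shares describe the make-up of this group and not a choice of paralog. SLC25A1 made up 65.0% of this group in adipose tissue of rhesus_950807 and 51.2% to 79.9% in control adipose tissue. In muscle it made up 6.80% in rhesus_950807 and 3.60% to 11.2% in controls. SLC25A11 took 19.97% in adipose tissue of rhesus_950807 and 12.4% to 31.8% in control adipose tissue, against 91.9% in muscle of rhesus_950807 and 85.9% to 95.8% in control muscle. These shares did not overlap between the tissues. SLC25A39 led the glutathione carriers everywhere, with 86.3% in adipose tissue of rhesus_950807 and 78.2% to 93.6% in control adipose tissue, against 98.0% in muscle of rhesus_950807 and 95.8% to 99.2% in control muscle.

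Among the ATP-Mg/phosphate carriers, the muscle shares of SLC25A23, SLC25A24 and SLC25A25 in animal rhesus_950807 lay outside the range of the controls. Shares of a subfamily add up to the whole, so that these are not separate observations. For single genes in muscle after TMM scaling, 23.8% of all genes lay below all 4 controls and 24.3% above. On that scale SLC25A25 lay within the controls. In muscle, SLC25A23 made up 39.4% in rhesus_950807 against 49.1% to 78.4% in controls, SLC25A25 50.9% against 18.3% to 49.0%, and SLC25A24 7.74% against 0.942% to 3.37%. SLC25A24 rested on 165 reads in rhesus_950807, against 33, 44, 25 and 44 reads in the controls. In adipose tissue the shares of rhesus_950807 lay within the controls, at 38.6% against 28.4% to 68.6% for SLC25A23, 18.5% against 11.0% to 38.6% for SLC25A25 and 42.9% against 17.3% to 59.2% for SLC25A24. Control shares in this subfamily spread widely, and the SLC25A25 share of control rhesus_920401 in adipose tissue, 38.6%, came with 8.23 RPKM against 1.45 to 2.02 RPKM in the other control adipose libraries.

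**Figure D3:**
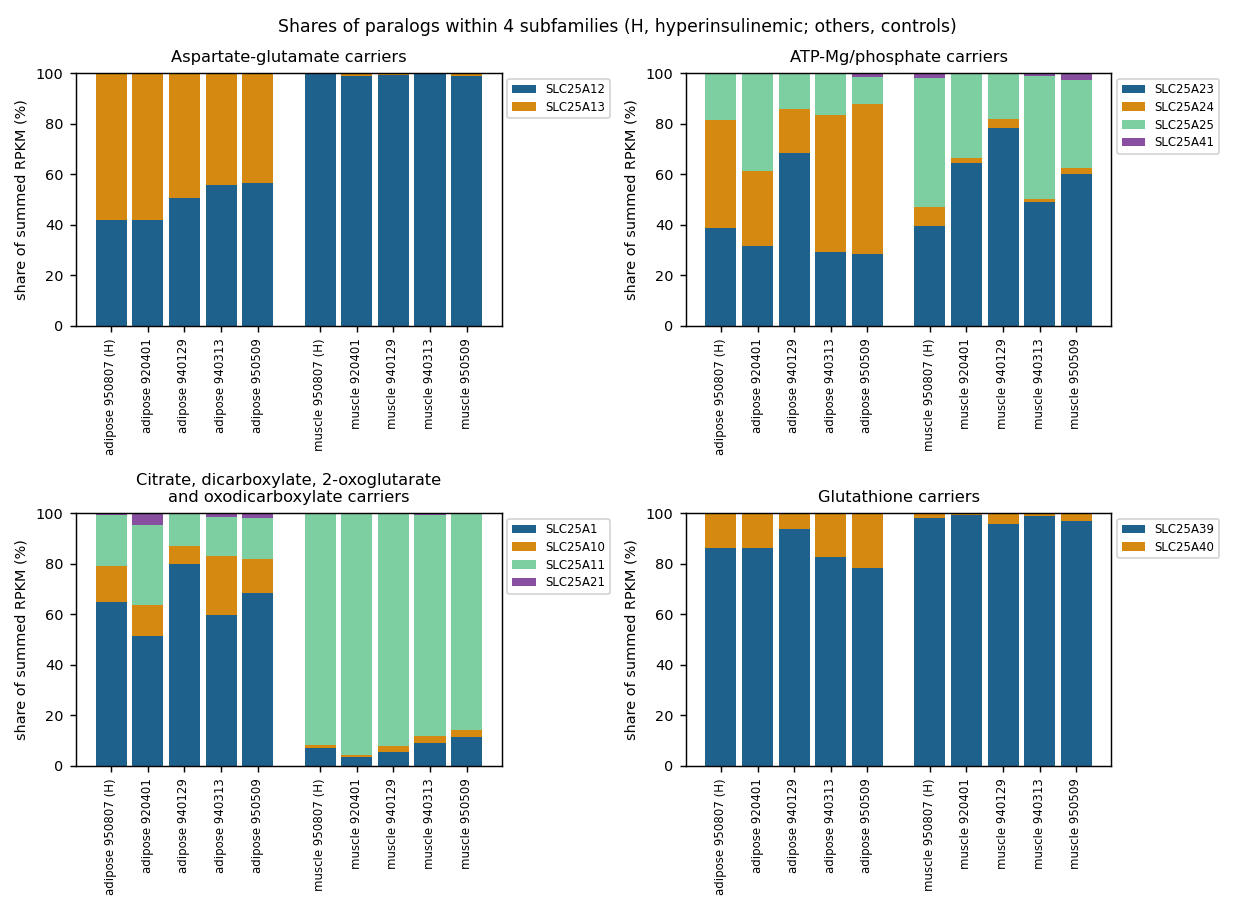
Share of each member in the summed RPKM of 4 subfamilies, in percent, with 1 stacked bar per library (adipose tissue left, muscle right, animal rhesus_950807 first in each). SLC25A12 fills 98.8% or more of the aspartate-glutamate carriers in every muscle library and 41.8% to 56.5% in adipose tissue.

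Animal rhesus_950807 was then compared with the 4 controls in each tissue by the same test, with a call at an adjusted p under 0.05. In muscle, 0 of 22 members tested were called by edgeR, DESeq2 or limma, and 0 had an unadjusted edgeR p under 0.05, beside 0.0% of genes called by edgeR and 9.08% of genes at that unadjusted p. DESeq2 called 88 of the 8306 genes and limma 1. The members' median log2 difference was -0.10, with 13 of 22 estimates negative, against a median of -0.03 over all genes. With the mapped totals the members' median was 0.07, with 9 negative. The smallest p belonged to SLC25A3, at 166 RPKM in rhesus_950807 against 216, 217, 227 and 185 RPKM in controls rhesus_920401, rhesus_940129, rhesus_940313 and rhesus_950509, a log2 difference of -0.52 (95% confidence interval -1.09 to 0.06, adjusted p = 0.596). SLC25A4 followed at -0.45 (-1.10 to 0.20), and both lay below all 4 controls. SLC25A26, the S-adenosylmethionine carrier, was estimated at 0.47 (-0.22 to 1.16) and SLC25A12 at 0.37 (-0.21 to 0.95), both above all 4 controls. SLC25A10 was at -1.14 (-2.96 to 0.67) and SLC25A23 at -0.41 (-1.08 to 0.27). SLC25A20 was at 14.9 RPKM in rhesus_950807, above the 7.86 to 12.4 RPKM of the controls, with a difference of 0.36 (-0.46 to 1.17), and SLC25A1 at -0.36 (-1.65 to 0.94). None of these intervals excluded 0.

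After TMM scaling, rhesus_950807 lay below all 4 controls for 5 of the 22 members in muscle, among them SLC25A3, SLC25A4, SLC25A23 and SLC25A28, and above them for 3 (SLC25A12, SLC25A20 and SLC25A26). The same held for 23.8% of all genes below and 24.3% above. In RPKM, 3 of the 22 lay below and 5 above, so that these counts too turned with the scaling. The share of all genes in RPKM is not given here, and their median moved up from -0.03 to 0.14 with the mapped totals. The 6 slow fibre markers tested in muscle were all lower in rhesus_950807 at an unadjusted p under 0.05, and summed to 117 RPKM in rhesus_950807 against 498 to 4655 RPKM in controls, with none of them at 0, while the 6 fast fibre markers summed to 46690 RPKM against 32174 to 50513 RPKM. The 7 smooth muscle and pericyte markers were all estimated lower, 4 of them at an unadjusted p under 0.05, and summed to 57.9 RPKM in rhesus_950807 against 96.0 to 143 RPKM in controls. The 6 macrophage markers tested were also all estimated lower, 2 of them at that p, with a sum over 8 markers of 12.6 RPKM against 15.4 to 48.8 RPKM, and the 5 fibroblast markers summed to 146 RPKM against 152 to 214 RPKM. The 6 T and NK cell markers summed to 2.13 RPKM against 2.14 to 5.83 RPKM. Their part in the carrier values was not tested.

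In adipose tissue, 0 of 30 members tested were called by edgeR, DESeq2 or limma, and 0 had an unadjusted edgeR p under 0.05, beside 0.0% of genes called by edgeR and 2.39% of genes at that p. DESeq2 called 11 of the 11981 genes and limma 0. The members' median log2 difference was -0.14, against -0.06 over all genes, and 20 of the 30 estimates were negative. With the mapped totals the median was 0.06 and 14 estimates were negative. SLC25A21 had the smallest p, with 0.822 RPKM (35 reads) in rhesus_950807 against 3.38, 1.34, 1.96 and 2.69 RPKM in controls rhesus_920401, rhesus_940129, rhesus_940313 and rhesus_950509, a log2 difference of -1.68 (95% confidence interval -3.57 to 0.20, edgeR adjusted p = 0.9999). SLC25A3, at 89.6 RPKM against 100 to 162 RPKM, differed by -0.63 (-1.72 to 0.45), and SLC25A11, at 19.6 RPKM against 21.2 to 40.3 RPKM, by -0.65 (-1.80 to 0.50). These 3 carriers lay below all controls in both RPKM and TMM-scaled counts. SLC25A1 was estimated at -1.12 (-3.15 to 0.91) and SLC25A10 at -0.82 (-2.35 to 0.72), and rhesus_950807 lay within the controls for both. The row named SLC25A47 was at 56.2 RPKM against 30.8 to 39.7 RPKM, with a difference of 0.49 (-0.37 to 1.36). SLC25A20 differed by 0.25 (-0.75 to 1.25) and SLC25A4 by -0.23 (-1.11 to 0.65).

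In adipose tissue, rhesus_950807 lay below all 4 controls for 7 of the 30 members after TMM scaling and above them for 2, beside 14.3% of all genes below and 15.7% above. In RPKM, on the same 30 members, 4 lay below and 7 above. The share of all genes in RPKM is not given here, and their median moved up from -0.06 to 0.13 with the mapped totals. The counts thus turned with the scaling, and no excess in either direction is read from them. The 9 adipocyte markers summed to 5277 RPKM in adipose tissue of rhesus_950807 against 3156 to 7766 RPKM in controls. Of these 9, 6 were estimated lower, 1 of them at an unadjusted edgeR p under 0.05, and 3 higher. The 8 macrophage markers summed to 742 RPKM against 192 to 592 RPKM in controls. Of their 8 estimates 7 were positive, with 0 at an unadjusted p under 0.05. Sums above all 4 controls were also found for the T and NK cell markers (77.7 RPKM in rhesus_950807 against 23.8 to 51.9 RPKM), the fibroblast markers (2561 against 1269 to 1956 RPKM) and the endothelial markers (189 against 104 to 157 RPKM). Of the markers tested, 5 of 5, 4 of 5 and 2 of 5 were estimated higher, in that order, with 0 at an unadjusted p under 0.05. The endothelial sum thus lay above the controls although 3 of its 5 markers were estimated lower. The myofibre markers summed to 35.1 RPKM in rhesus_950807 against 37.6 to 338 RPKM in controls, with 8 of 8 tested estimated lower and 3 of them at that p. Their part in the carrier values was not tested.

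The effect in adipose tissue was set against that in muscle by an interaction term over 7938 genes. Of the 22 members tested, 0 were called by edgeR, DESeq2 or limma, beside 0.0% of genes called by edgeR. At an unadjusted edgeR p under 0.05 there were 0 members, beside 434 of the 7938 genes. DESeq2 called 16 of the 7938 genes. The estimates ran between -1.08 for SLC25A25 and 0.76 for SLC25A43, and the smallest p was 0.142, for the row named SLC25A47.

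**Figure D4:**
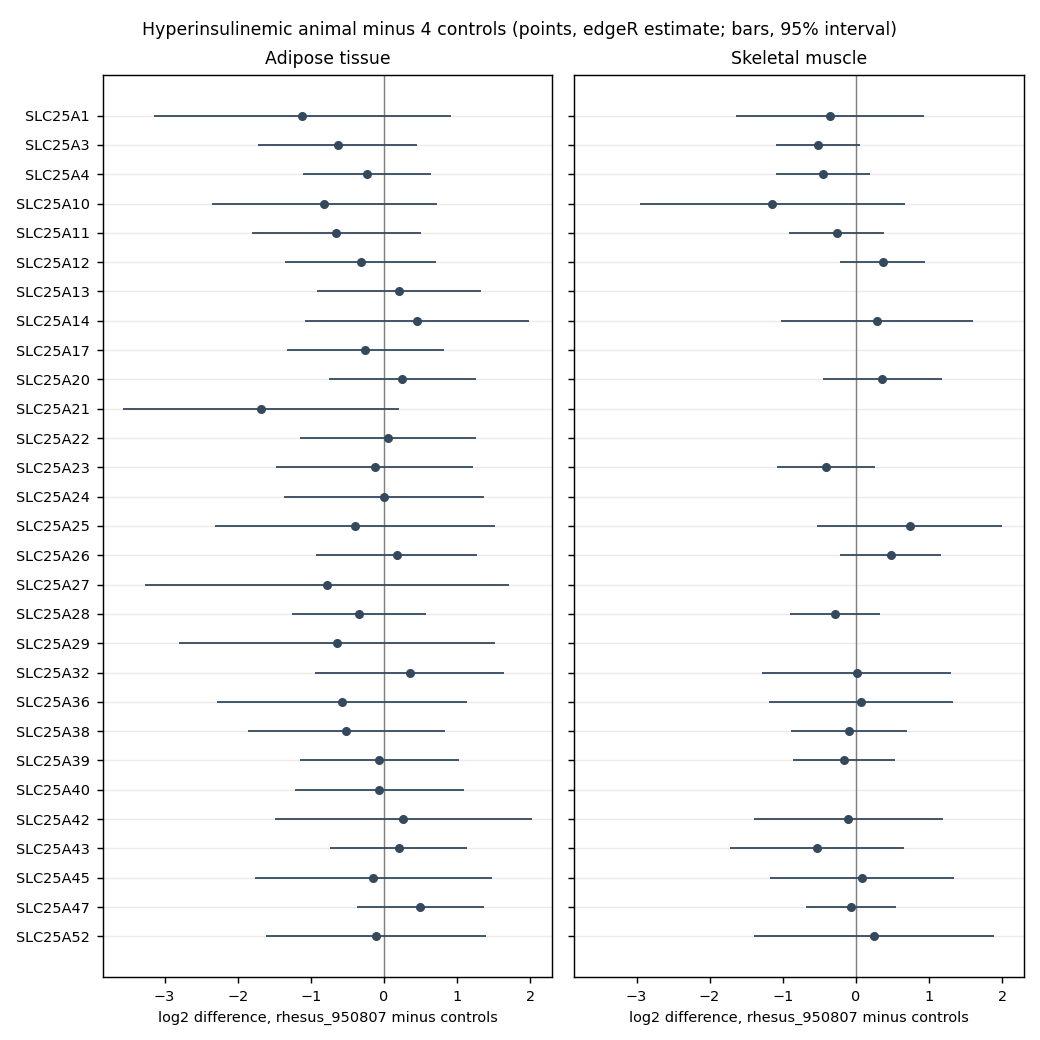
Log2 difference of animal rhesus_950807 minus the 4 controls for 29 carriers in adipose tissue (left) and muscle (right), with edgeR estimates as points and 95% confidence intervals as bars. Carriers without a point were below the filter in that tissue, and all intervals include 0.

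Members below the filter were few in reads. In muscle, SLC25A24 at 1.44 RPKM in rhesus_950807, against 0.171 to 0.366 RPKM in controls, gave an exact two-sided permutation p of 0.2, the smallest that 1 animal against 4 allows. In an edgeR fit without the filter its log2 difference was 2.16 (SE 0.66, unadjusted p = 0.00381, adjusted p = 0.350). SLC25A29, a carrier of basic amino acids, had 1 read in muscle of rhesus_950807 and 14 to 38 reads in control muscle (exact two-sided permutation p = 0.4). SLC25A2, an ornithine carrier, had 0 reads in all libraries, and SLC25A18, SLC25A35, SLC25A41 and SLC25A48 stayed below the filter in every comparison, with SLC25A18 at 0.271 to 1.45 RPKM in control adipose tissue and 0 to 0.0570 RPKM in control muscle.

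Other mitochondrial genes gave a setting for these values. Of 40 oxidative phosphorylation subunits tested between the tissues of the controls, 0 were called higher in adipose tissue and 32 higher in muscle, with a median of -1.86 relative to the median of all genes, against -0.37 for the carriers. ACLY, which cleaves exported citrate, differed by 3.80 (SE 0.59) between adipose tissue and muscle of the controls, and in adipose tissue it stood at 20.3 RPKM in rhesus_950807 against 12.6, 116, 61.3 and 67.6 RPKM in controls rhesus_920401, rhesus_940129, rhesus_940313 and rhesus_950509. Control rhesus_940129 was the highest and control rhesus_920401 the lowest for both ACLY and SLC25A1. CPT1B, which makes acylcarnitines in muscle, was called higher in muscle at -2.28 (SE 0.25). The tissue differences of the subunits, ACLY and CPT1B were taken with TMM, and their values with the mapped totals are not given here. The mitochondrial pyruvate carrier, a protein pair outside the SLC25 family, had MPC2 at 17.5 RPKM in adipose tissue of rhesus_950807 against 25.01 to 48.1 RPKM in controls, a log2 difference of -1.30 (edgeR adjusted p = 0.9999), and MPC1 at -1.14 (SE 0.53). Of the 40 oxidative phosphorylation subunits tested in rhesus_950807 against controls, 0 were called in either tissue, with medians of -0.42 in adipose tissue and -0.16 in muscle, against -0.06 and -0.03 over all genes.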

How the data were processed

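Strand-specific poly(A) RNA-seq libraries (HiSeq) of muscle and adipose tissue of 5 monkeys were grouped by the labels. The authors mapped reads with Tophat (the submitters' processing notes name release 1.2.0, the paper another) and kept uniquely mapped reads. For the counting tool, genome build and annotation, a name is not given in the sources used here. The authors deposited read counts per gene and RPKM values, which were checked to equal counts divided by transcript length and mapped reads. Symbols matched 15556 of 28595 IDs (54.4%). No sequences or coordinates are printed. The values of 1 member are not reported here, although it stays in the counts over members.

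Counts were tested with edgeR 4.0.16 (quasi-likelihood, TMM, R 4.3.3) over genes that averaged 1 RPKM or more, with Benjamini-Hochberg adjustment over all genes tested. For the lone animal, the spread of the controls is assumed. Alternatives were DESeq2 1.42.0, limma 3.58.1 on log2(RPKM + 1) and log2(RPKM + 0.1), other scalings and filters, the animal as a block, and each control left out. The code was tested on simulated data. P-values measure spread between these animals only, and depth limits members with few reads.

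Both tissues came from the same animals, so animal numbers pair the libraries. Deviations from the control means correlated at -0.215 to 0.151 between tissues of the same animal over 7938 genes. Between tissues of different control animals they correlated at -0.284 to 0.248, so that these values do not show the pairing. Members, lists and named genes were chosen with earlier results of these data known. Named were subfamily members, up to 10 called members with the largest tissue difference in each direction, the 6 members with the smallest p per tissue in the hyperinsulinemic comparison, SLC25A1, SLC25A4 and SLC25A20, and up to 4 genes of a context list.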

Additional observations from a re-analysis of the deposited data

Results flagged for a closer look

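In a group of 4 control libraries, a library whose gap to the next, as a share of the group's range, exceeded Dixon's 95% critical value was picked out. Over 50 groups of members and tissues this happened 4 times, and chance alone gives about 1 in 20, or 2.5. SLC25A25 stood at 8.23 RPKM in adipose tissue of control rhesus_920401, against 1.45 to 2.02 RPKM in the other controls. SLC25A11 stood at 40.3 RPKM in adipose tissue of control rhesus_940129, against 21.2 to 23.1 RPKM, in the library that also held the most SLC25A1. SLC25A22 stood at 1.84 RPKM in adipose tissue of control rhesus_940313, against 2.81 to 2.89 RPKM. In muscle, SLC25A32, a folate and FAD carrier, stood at 3.08 RPKM in control rhesus_940129, against 1.21 to 1.52 RPKM.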

How the results depend on the processing

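Between the tissues, 23 members and 5767 genes were called. With a mean of at least 5 RPKM these were 11 and 3325, since fewer genes were tested, and leaving out 1 control at a time gave 18 to 25 members and 5063 to 6086 genes. With the animal as a replicate block, 23 members and 5712 genes were called. Without the rows named SLC25A47 and SLC25A52, an alternative chosen after seeing the data, 23 members were called. SLC25A28 reversed to 0.62 with the mapped totals, 0.59 with limma on log2(RPKM + 1) and 0.61 on log2(RPKM + 0.1).

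In the hyperinsulinemic comparisons and the interaction, 0 members were called under every alternative run. Over all genes, calls in muscle were 88 with DESeq2, 10 without a filter, 3 with the mapped totals, 1 with median-of-ratios scaling, with limma at either pseudocount and with robust variances, and 0 to 14 with 1 control left out (14 without rhesus_940313). In adipose tissue they were 11 with DESeq2, 4 with the replicate block, 33 without the adipose libraries of rhesus_920401 and rhesus_940313, and 0 to 6 with 1 control left out (6 without rhesus_920401). The interaction gave 16 with DESeq2. SLC25A1 in muscle, not called, reversed to 0.010 without control rhesus_950509, over a range of -0.58 to 0.010 with 1 control left out.

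Shares of read counts, which do not correct for length, put SLC25A12 at 61.9% and SLC25A39 at 71.0% in control adipose tissue, and SLC25A23 at 46.8%, SLC25A24 at 3.48%, SLC25A25 at 49.2% and SLC25A39 at 94.5% in control muscle. Of 584 values of single members under alternatives, 548 kept direction and call, 28 lost the call, 4 gained it and 4 changed sign. For changes that are given no reason here, the cause was not tested.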
